A study of Mus musculus with 8 samples.

Results

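The 32 genes described here encode the enzymes and transporters that carry glucose to pyruvate and lactate, together with the kinases and the enzyme complex that decide whether pyruvate enters the mitochondria. They were taken by symbol from a table of 20888 genes. All 32 were found, and 30 of them passed a filter on low values and were tested, out of 13840 genes tested in all. The 2 others, the aldolase gene Aldoc and the lactate exporter gene Slc16a3, stayed near or under 1 CPM (the reads of a gene scaled to a common library total) in every library. RNA-seq was done on sorted T-ALL blasts, the immature cells of a T cell leukaemia, taken from the blood of mice. The 4 KO-labelled libraries came from mice with a homozygous mutant Kdm6b, and the 4 control libraries from mice with wild-type Kdm6b. Mice of both groups carried Vav-CRE, a recombinase driven by a promoter active in blood-forming cells, so the deletion is not limited to T cells. The labels do not say how the leukaemia was started, how old the mice were or whether each library is a separate mouse, so p-values measure the spread between libraries, which may be partly technical. The titles tag each group's libraries with a shared number that differs between the groups, and its meaning is not given.

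In glycolysis, hexokinases trap glucose in the cell, phosphofructokinase sets the pace, and the payoff enzymes from glyceraldehyde phosphate dehydrogenase to pyruvate kinase return ATP. Lactate dehydrogenase then turns pyruvate into lactate, which leaves the cell through monocarboxylate transporters, unless the pyruvate dehydrogenase complex carries pyruvate into the citric acid cycle. Dividing lymphoid cells and leukaemia cells are known for a high glycolytic rate, and the transcription factors MYC and HIF are textbook activators of many of these genes.

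Some facts of the libraries bear on all values. Estimated depth was 14017971 to 18244180 reads in the KO-labelled libraries and 18262839 to 22070670 reads in the controls. Kdm6b itself was at 587 ± 92.2 CPM in the KO-labelled libraries and 514 ± 135 CPM in the controls (SD, n = 4 each, exact two-sided permutation p = 0.486, smallest possible p = 0.0286). A value over the whole gene holds exons outside any deleted part and checks neither the labels nor the deletion. Xist, an RNA of female cells, was at 264 to 455 CPM in the KO-labelled libraries and at 0 to 0.831 CPM in the controls, while the Y-linked Ddx3y was at 0.0714 to 0.548 CPM in the KO-labelled libraries and 117 to 195 CPM in the controls. Sex and Kdm6b label therefore cannot be told apart, and 3 of the 32 genes, Pgk1, Pdha1 and Pdk3, lie on the X chromosome. All 12 T cell markers checked were high in every library, summing to 15948 to 17858 CPM in the KO-labelled libraries and 13409 to 17380 CPM in the controls. In bulk libraries, fewer cells of a type and less RNA per cell cannot be told apart.

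None of the glycolysis genes passed the test between the groups. Limma with Benjamini-Hochberg adjustment over all genes called 0 of the 30 at an adjusted p below 0.05, against 3.53% of all genes tested (1.21% higher and 2.32% lower), and the lowest adjusted p was 0.104. Among all called genes 65.8% were lower, and 55.8% were with quantile normalization. At an unadjusted p below 0.05 there were 10 of 30, against 19.3% of all genes (7.62% higher and 11.7% lower). That count of members was 5 without KO-labelled replicate 1 (17% of all genes) or control replicate 3 (15.8%), and 6 without KO-labelled replicate 2 (15.3%), without KO-labelled replicate 4 (17.5%) or with median ratio size factors (19.1%). Of these 10, 8 were lower in the KO-labelled libraries (Hk1, Pfkm, Slc16a1, Pgam1, Ldha, Dlat, Tpi1 and Bnip3) and 2 were higher (Slc2a3 and Eno3). Of the 30 genes, 6 had groups with no overlap, beside 13.2% of all genes: 2 with every KO-labelled library above every control (5.23% of all genes) and 4 with every one below (7.97%). Over the 30 genes the median log2 change was -0.06, beside -0.03 over all genes, with 14 changes above 0 and 16 below, where 54.8% of all genes were below. For 25 of the 30 genes the 95% interval of the change lay within 1 unit of 0 on the log2(CPM + 1) scale. The authors' deposited table of genes that passed their thresholds, labelled 2-fold, held 0 of the 32 genes. It lists 218 genes, beside 20888 in the full table. With so small a share listed, the 0 says little about these genes.

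**Figure D1:**
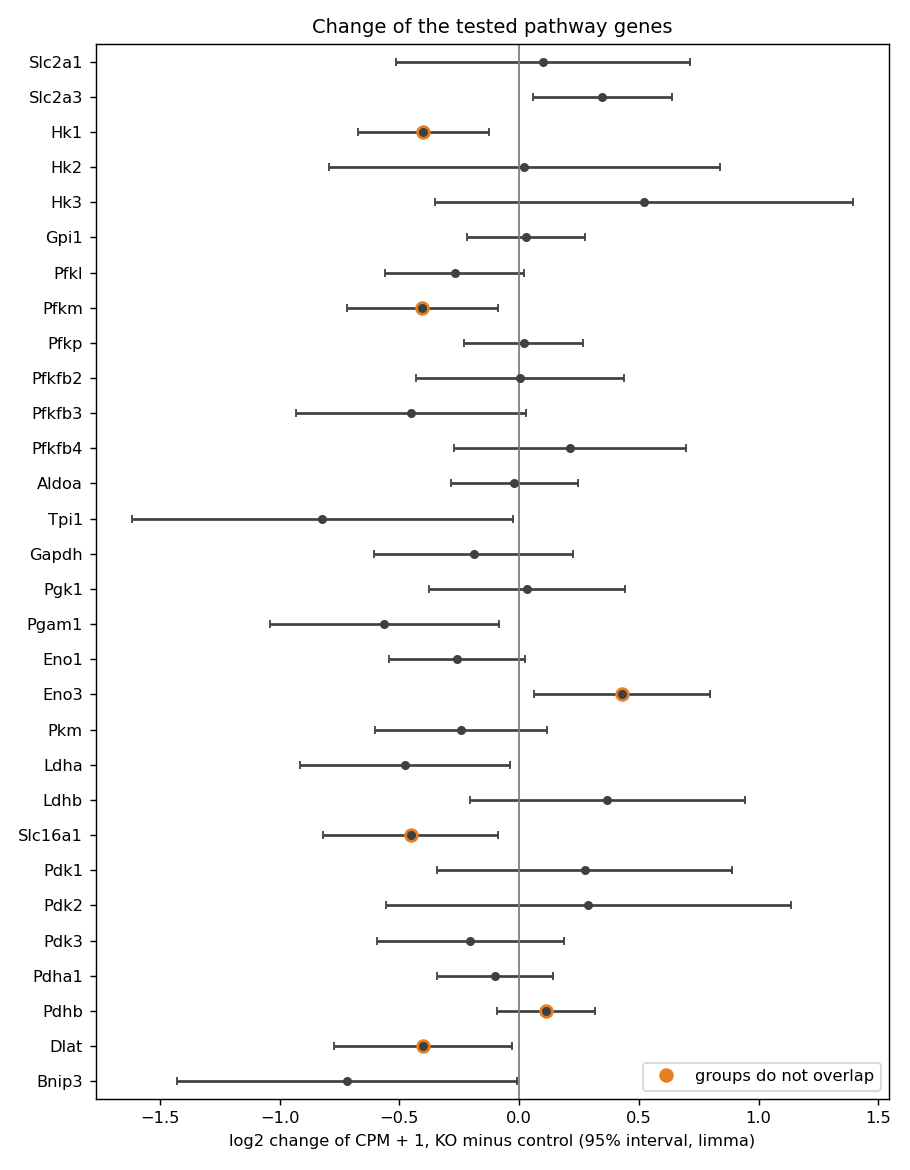
Log2 change of CPM + 1, KO-labelled minus control, for the 30 tested genes in pathway order, with 95% limma intervals; orange points mark the 6 genes whose groups do not overlap. The changes lie between -0.82 for Tpi1 and 0.52 for Hk3, and none passed the test after adjustment.

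Of the glucose transporter genes Slc2a3 had the higher level. It encodes GLUT3, a high-affinity glucose transporter of neurons and blood cells, and had 163, 183, 148 and 139 CPM in KO-labelled replicates 1 to 4, against 128, 146, 105 and 119 CPM in control replicates 1 to 4. The groups overlapped only between KO-labelled replicate 4 and control replicate 2. The log2 change was 0.35 ± 0.13 (SE, limma adjusted p = 0.183). Slc2a1 encodes GLUT1, the widely expressed basal transporter, and had 12.1, 28.8, 34.9 and 18.3 CPM in the KO-labelled libraries, against 17.9, 24.8, 21.7 and 17.5 CPM in the controls. Its highest and its lowest value were both in KO-labelled libraries, and its log2 change was 0.10 ± 0.28 (SE). Per kb of exon, the level of Slc2a3 was 2.06 to 6.53 times that of Slc2a1 in the 8 libraries. The multiple depends on the length taken: per kb of the longest coding transcript, they averaged 35.7 and 6.74 CPM over all libraries.

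Among hexokinases Hk1, the enzyme of most tissues, was the main one and had the lowest adjusted p of the pathway. It lies on the minus strand of chromosome 10 from 62268855 to 62379908 (mm10). Hk1 had 117, 110.2, 128 and 91.4 CPM in KO-labelled replicates 1 to 4, against 147, 138, 162 and 140.1 CPM in control replicates 1 to 4. Every KO-labelled library was below every control, with a mean of 76.1% of the control mean. The log2 change was -0.40 ± 0.12 (SE, 95% interval -0.67 to -0.13, limma adjusted p = 0.104). Array weights, which let limma give libraries unequal weight, took it past the threshold (limma adjusted p = 0.0359). That setting called 1313 of 13840 genes, against 488 with equal weights. Over all settings the limma adjusted p of Hk1 lay between 0.0359 and 0.261. Hk2, the hexokinase often induced in tumours, was at 1.85, 3.57, 6.30 and 5.85 CPM in the KO-labelled libraries and at 2.74, 2.91, 3.24 and 8.88 CPM in the controls. Its control values were close together except for replicate 4, and the log2 change was 0.02 ± 0.37 (SE). Per kb of exon Hk1 was 10.9 to 44.1 times Hk2, and the ratio was lowest in KO-labelled replicate 4 and control replicate 4, at log2 values of 3.45 and 3.46. The multiple depends on the length taken: per kb of the longest coding transcript, Hk1 averaged 33.6 CPM and Hk2 0.801 CPM over all libraries.

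Hk3, a hexokinase of myeloid cells, was at 1.05, 0.571, 2.63 and 3.53 CPM in KO-labelled replicates 1 to 4 and at 0.493, 1.87, 0.105 and 1.63 CPM in the controls. Its 3 highest values, in KO-labelled replicates 4 and 3 and control replicate 2, were in the 3 libraries with the highest sum of 15 neutrophil and monocyte markers. That sum was 157, 134, 287 and 410 CPM in the KO-labelled libraries and 153, 340, 151 and 187 CPM in control replicates 1 to 4. Single markers did not all keep this order. Lyz2 was highest in the same 3 libraries, but S100a8 was at 24.6 CPM in KO-labelled replicate 1 and 14.9 CPM in control replicate 2. Mpo was at 0.548 and 0 CPM in KO-labelled replicates 3 and 4 and 0.312 CPM in control replicate 2, against 6.33 CPM in control replicate 3. The part of other blood cells in the Hk3 value was not tested. Its log2 change was 0.52 ± 0.40 (SE, limma adjusted p = 0.513).

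**Figure D2:**
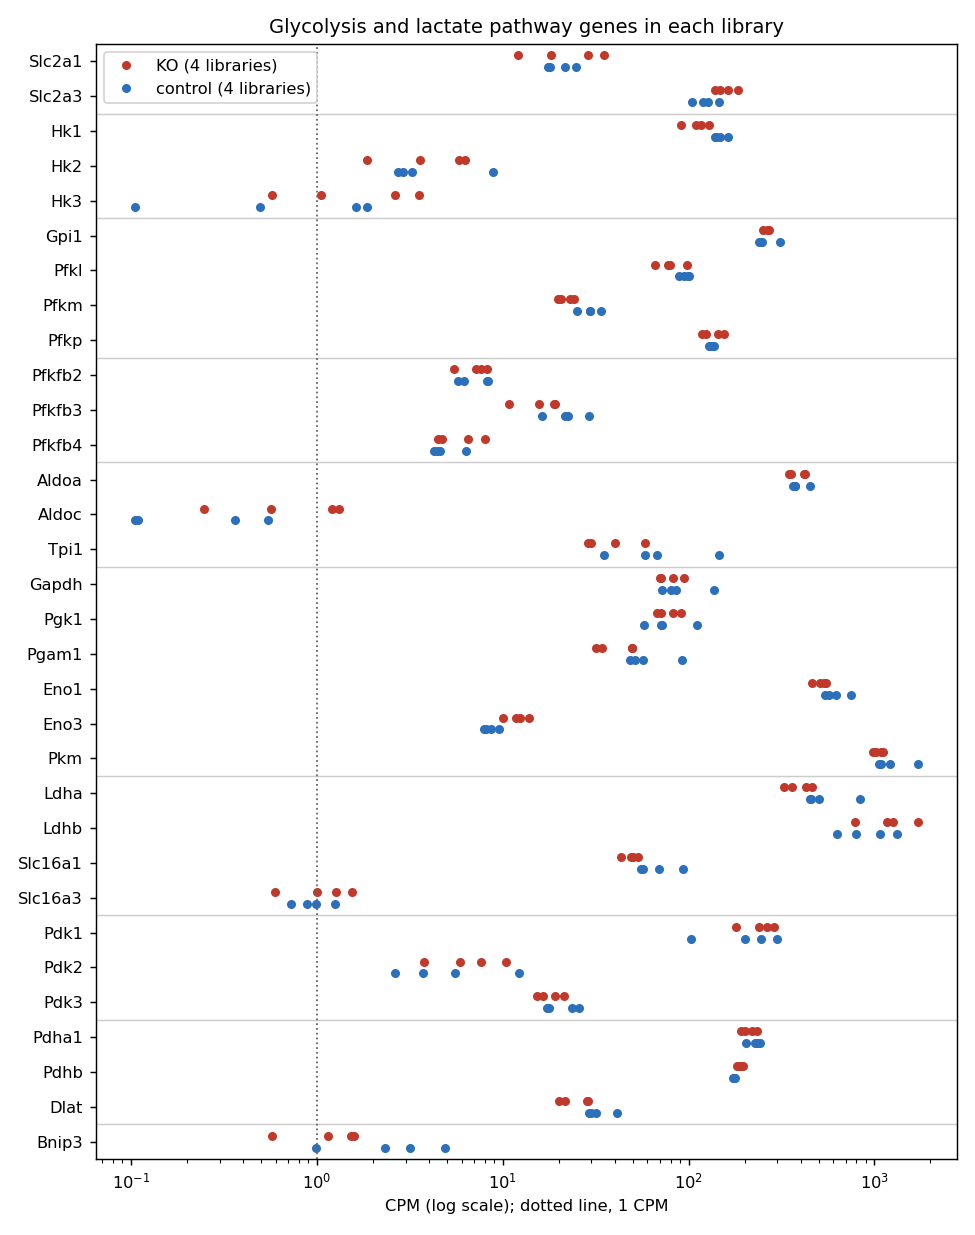
CPM of the 32 genes in each library on a log axis, in pathway order, with KO-labelled libraries (red) above controls (blue) in each row. Aldoc and Slc16a3 lie around or under the 1 CPM line, and the groups overlap for most genes.

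At the phosphofructokinase step the muscle-type subunit gene Pfkm was lower in each KO-labelled library. It had 20.7, 24.3, 23.0 and 19.9 CPM in KO-labelled replicates 1 to 4, against 25.0, 29.4, 34.0 and 29.4 CPM in the controls. The groups did not overlap but came within 1 CPM of each other, and the log2 change was -0.40 ± 0.14 (SE, limma adjusted p = 0.154). The other subunits had higher mean levels per kb of exon in both groups. Pfkl, the liver type, averaged 80.1 ± 13.5 CPM in the KO-labelled libraries and 95.9 ± 5.58 CPM in the controls (SD, n = 4 each). Pfkp, the platelet type, averaged 135 ± 16.7 CPM in the KO-labelled libraries and 133 ± 3.82 CPM in the controls (SD, n = 4 each). Which of the 2 is higher per length depends on the length taken, since Pfkl leads per kb of all exons and Pfkp per kb of its longest coding transcript. Gpi1, the isomerase ahead of them, had 253, 271, 266 and 267 CPM in the KO-labelled libraries, against 249.6, 239, 245 and 309 CPM in the controls. Its 95% interval ran from -0.22 to 0.27 on the log2 scale.

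The PFKFB enzymes make and break the sugar phosphate that switches phosphofructokinase on. Pfkfb3, whose enzyme mostly makes it, had 15.7, 18.9, 19.2 and 10.8 CPM in the KO-labelled libraries, against 22.4, 21.7, 29.0 and 16.4 CPM in the controls. Control replicate 4 was lower than 2 of the KO-labelled libraries, so the groups overlapped (log2 change -0.45 ± 0.22, SE, limma adjusted p = 0.286). Pfkfb2 and Pfkfb4 lay between 4.26 and 8.32 CPM in all libraries.

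Of the aldolases Aldoa was almost the only one present. It had 345, 355, 425 and 417 CPM in the KO-labelled libraries, against 375, 375, 363 and 449 CPM in the controls, and its log2 change was -0.02 ± 0.12 (SE). Aldoc, the brain form, was at 0.247 to 1.32 CPM in the KO-labelled libraries and 0.105 to 0.544 CPM in the controls, where 3 reads correspond to 0.136 to 0.214 CPM. Tpi1, triose phosphate isomerase, had the largest estimate of the pathway and one of the least certain. It was at 29.8, 28.6, 58.4 and 40.1 CPM in KO-labelled replicates 1 to 4 and at 67.5, 35.1, 58.5 and 147 CPM in control replicates 1 to 4. The control mean of 76.9 CPM was 53.7 CPM without replicate 4. The log2 change was -0.82 ± 0.36 (SE, limma adjusted p = 0.245), and -0.45 without that library.

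In the payoff phase Pkm, pyruvate kinase of muscle and dividing cells, had the highest level per kb of exon among the payoff genes. It was at 1021, 984, 1083 and 1108 CPM in the KO-labelled libraries and at 1052, 1213, 1078 and 1714 CPM in the controls. Control replicate 4 stood above the other 7 libraries, which lay within 984 to 1213 CPM. The log2 change was -0.24 ± 0.16 (SE, limma adjusted p = 0.455), and -0.09 without that library. Pgam1, phosphoglycerate mutase, had 31.9, 34.1, 49.4 and 49.6 CPM in the KO-labelled libraries, against 56.6, 48.6, 51.7 and 92.1 CPM in the controls. Only KO-labelled replicates 3 and 4 reached the lowest control, control replicate 2 (log2 change -0.56 ± 0.22, SE, limma adjusted p = 0.189), and without control replicate 4 the log2 change was -0.36. The X-linked Pgk1, phosphoglycerate kinase, had 67.6, 82.3, 71.0 and 90.5 CPM in the KO-labelled libraries, against 71.1, 57.4, 71.8 and 111 CPM in the controls. The means were both 77.8 CPM, with a 95% interval of -0.37 to 0.44 for the log2 change.

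Eno3, the enolase best known from muscle, was higher in each KO-labelled library. It had 11.7, 9.99, 12.4 and 13.8 CPM in the KO-labelled libraries, against 8.65, 8.17, 7.96 and 9.61 CPM in the controls. All KO-labelled values were above all controls, the lowest by little (log2 change 0.43 ± 0.17, SE, limma adjusted p = 0.189). Eno1, the general enolase, averaged 515 ± 38.3 CPM in the KO-labelled libraries and 619 ± 90.3 CPM in the controls (SD, n = 4 each), with a log2 change of -0.26 ± 0.13 (SE), or -0.17 without control replicate 4. A test of the difference between the 2 genes was not made.

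Several of these genes have near-identical copies in the mouse genome, and the table gives values to many copies beside the gene. How reads that match both a gene and a copy were counted is not known. Copies were taken as other GENCODE vM21 genes matching the coding sequence at 90% identity or more over at least 500 bases. The table listed copies of 12 members. For Gapdh, on chromosome 6 from 125161715 to 125166467 (mm10), there were 155 such genes, 66 of them listed. The Gapdh row had 71.3, 70.5, 82.4 and 94.96 CPM in KO-labelled replicates 1 to 4, against 85.3, 71.6, 80.2 and 136 CPM in the controls. The copies together had 137, 129, 197 and 123 CPM in the KO-labelled libraries, against 235, 213, 265 and 355 CPM in the controls. In every library the copies thus held more reads than the gene itself.

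The sum of Gapdh and its copies was 209, 199, 279 and 218 CPM in the KO-labelled libraries, against 321, 285, 346 and 491 CPM in the controls, with no overlap. The log2 change of the sum was -0.65 ± 0.17 (SE, 95% interval -1.03 to -0.27, limma adjusted p = 0.0664), and that of the row alone was -0.19 ± 0.19 (adjusted p = 0.633). Their 95% intervals overlapped, and the difference between them was not tested. This sum was chosen after the data were seen, and neither value passed the test. Copies of Eno1, among them the retrocopy Eno1b, held 576 ± 66.6 CPM in the KO-labelled libraries and 674 ± 101 CPM in the controls. For Pgk1 the copies held 103 ± 8.50 CPM in the KO-labelled libraries and 130.1 ± 35.3 CPM in the controls (SD, n = 4 each). With copies added, the log2 change of Pgk1 was -0.16 ± 0.17 (SE), below 0, while that of its row alone was 0.03.

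**Figure D3:**
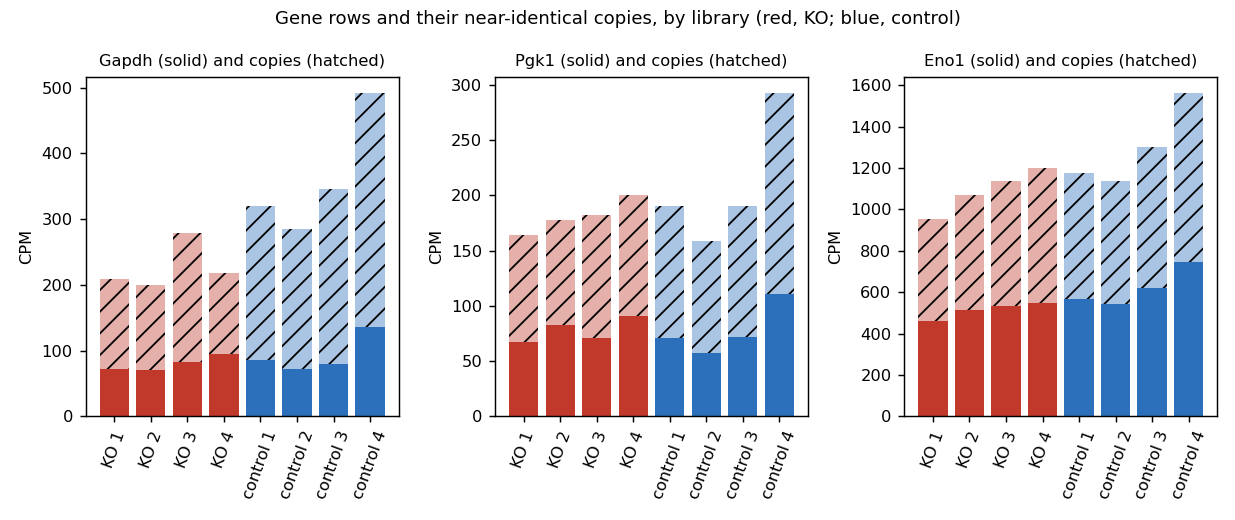
CPM of Gapdh, Pgk1 and Eno1 (solid) with their near-identical copies stacked on top (hatched), in the 4 KO-labelled libraries (red, left) and the 4 controls (blue, right). For Gapdh the copies exceed the gene in all libraries, and the stacked totals of 199 to 279 CPM in KO-labelled libraries lie below the 285 to 491 CPM of the controls.

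At the lactate step Ldhb had a higher level than Ldha per kb of exon in all 8 libraries. Ldha, the form that favours making lactate, had 327, 359.5, 459.5 and 429 CPM in KO-labelled replicates 1 to 4, against 502, 456, 452 and 840.5 CPM in the controls. KO-labelled replicate 3 was above 2 of the controls, so the groups overlapped (log2 change -0.48 ± 0.20, SE, limma adjusted p = 0.222). The control mean of 563 CPM was 470.1 CPM without replicate 4, and the log2 change was then -0.27. Ldhb, the form that favours using lactate, had 1259, 788, 1162 and 1720.4 CPM in the KO-labelled libraries, against 797, 1324, 1069 and 632 CPM in the controls. Its groups overlapped widely (log2 change 0.37 ± 0.26, SE, limma adjusted p = 0.479), and the log2 change was 0.19 without control replicate 4 and 0.19 without KO-labelled replicate 4. Its 2 highest values were in the libraries with the most red cell RNA. There 8 erythroid markers summed to 948 CPM in KO-labelled replicate 4 and 1262 CPM in control replicate 2. In the other 6 libraries, at 61.0 to 279 CPM, this order was not kept. Control replicate 1 had 279 CPM of markers with 797 CPM of Ldhb, and control replicate 3 had 61.0 CPM with 1069 CPM. The part of red cells in the Ldhb value was not tested. Per kb of exon, the log2 ratio of Ldhb to Ldha was 3.02, 2.21, 2.41 and 3.08 in the KO-labelled libraries and 1.74, 2.61, 2.32 and 0.67 in the controls. The lowest ratio was that of control replicate 4, where Ldha had the higher CPM and Ldhb led only per length.

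Slc16a1 encodes MCT1, a transporter of lactate and pyruvate, and lies on chromosome 3 from 104638668 to 104658462 (mm10). It had 49.1, 53.4, 50.4 and 43.2 CPM in KO-labelled replicates 1 to 4, against 69.3, 57.0, 55.5 and 93.5 CPM in the controls. Every KO-labelled library was below every control, though KO-labelled replicate 2 and control replicate 3 were close. The mean was 71.2% of the control mean (log2 change -0.45 ± 0.17, SE, 95% interval -0.82 to -0.09, limma adjusted p = 0.167), and without control replicate 4 the log2 change was -0.30. The lactate exporter gene Slc16a3, which encodes MCT4, was at 0.592 to 1.54 CPM in the KO-labelled libraries and 0.725 to 1.25 CPM in the controls.

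Of the kinases that switch off pyruvate dehydrogenase, Pdk1 had the highest level per kb of exon. It had 239, 264, 288 and 179 CPM in the KO-labelled libraries, against 200.5, 298, 247 and 102 CPM in the controls. Replicate 4 was the lowest of its group in both, and without control replicate 4 the log2 change of 0.27 ± 0.28 (SE) turned to -0.04. The X-linked Pdk3 had 19.1, 15.3, 16.4 and 21.4 CPM in the KO-labelled libraries, against 23.6, 17.3, 17.8 and 25.6 CPM in the controls. Pdk2 ranged from 3.78 to 10.4 CPM in the KO-labelled libraries and from 2.63 to 12.2 CPM in the controls.

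In the pyruvate dehydrogenase complex Dlat was lower and Pdhb higher in every KO-labelled library. Neither was called, and the difference between the 2 genes was not tested. Dlat, its acetyl-transferring core, had 28.8, 21.8, 28.4 and 20.2 CPM in the KO-labelled libraries, against 29.7, 29.2, 31.8 and 41.3 CPM in the controls. The groups did not overlap but came within 1 CPM (log2 change -0.40 ± 0.17, SE, limma adjusted p = 0.223), and without control replicate 4 the log2 change was -0.29. Pdhb, the beta subunit of the first enzyme, had 192, 183, 187 and 195 CPM in the KO-labelled libraries, against 177, 175, 172 and 175 CPM in the controls. It had the narrowest interval of the pathway: the groups stood apart, with a KO-labelled mean at 108% of the control mean (log2 change 0.11 ± 0.09, SE, limma adjusted p = 0.546). The X-linked Pdha1, its alpha subunit, had 220.3, 201, 234 and 192 CPM in the KO-labelled libraries, against 204, 233, 227 and 244 CPM in the controls, and these overlapped. Bnip3, a receptor for the removal of mitochondria and a hypoxia target, had 1.15, 0.571, 1.52 and 1.59 CPM in the KO-labelled libraries, against 2.33, 3.15, 4.90 and 0.987 CPM in the controls. Control replicate 4 was under 3 of the KO-labelled values. With array weights, which called 1313 of 13840 genes, Bnip3 passed the threshold (log2 change -1.01, limma adjusted p = 0.0388). With equal weights its log2 change was -0.72 ± 0.32 (SE, limma adjusted p = 0.252). The highest adjusted p of Bnip3 over all settings was 0.498.

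**Figure D4:**
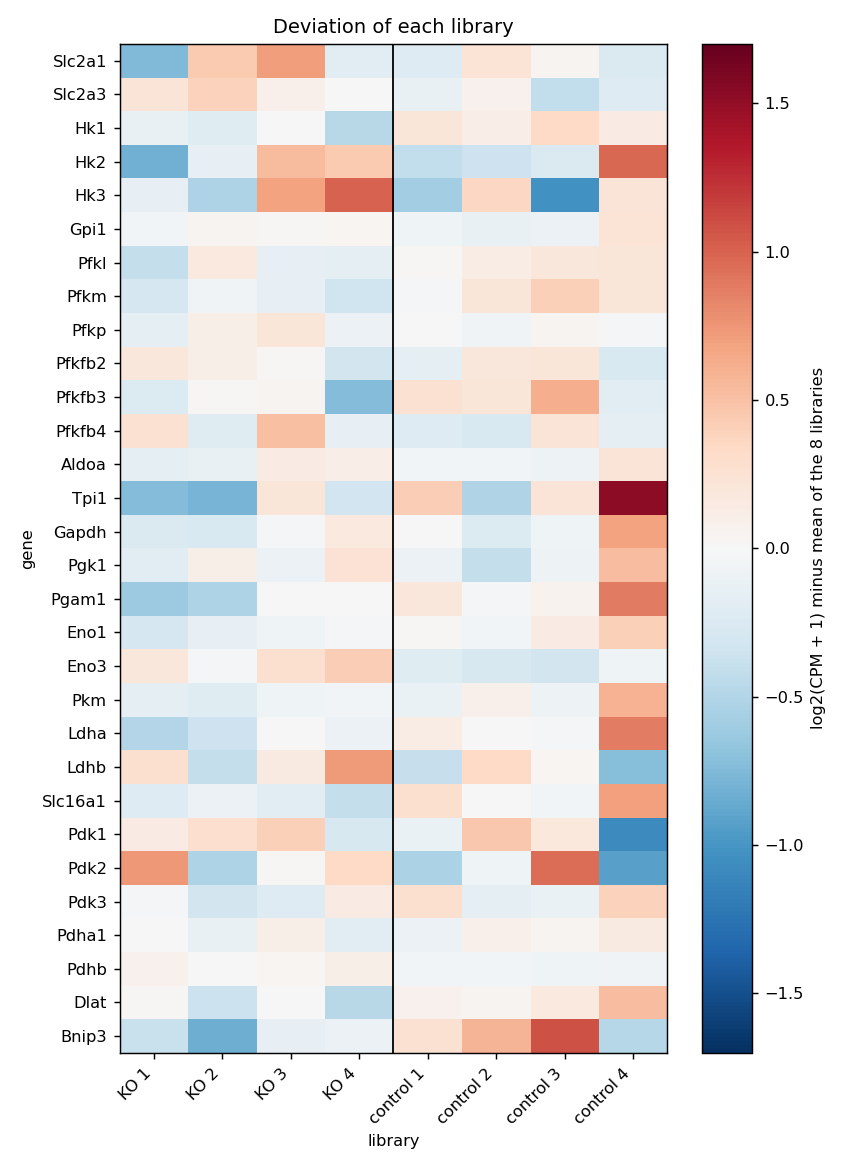
Deviation of each library from the mean of the 8 libraries, on the log2(CPM + 1) scale, for the 30 tested genes in pathway order (red, above the mean; blue, below), with KO-labelled libraries left of the line. Control 4 is red for Hk2, Tpi1, Pgam1, Pkm and Ldha and blue for Ldhb, Pdk1 and Pdk2.

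The pattern that stood out in these genes ran within the controls. Control replicate 4 was the highest of the 8 libraries for 15 of the 30 genes: Slc16a1, Hk2, Gpi1, Pfkl, Aldoa, Tpi1, Gapdh, Pgk1, Pgam1, Eno1, Pkm, Ldha, Pdk3, Pdha1 and Dlat. Over all genes tested it was the highest for 24.1%. It was the lowest library for 3 of the 30, Ldhb, Pdk1 and Pdk2, beside 24.3% of all genes. KO-labelled replicate 1 was the lowest for 8 genes, beside 13.1% of all genes, and the highest for none. Without control replicate 4, 0 of 30 genes were called, the lowest adjusted p was 0.0653, and 7 of 30 genes had an unadjusted p below 0.05, beside 22.3% of all genes in the same fit.

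Myc, whose protein activates many glycolysis genes, was also highest in control replicate 4, as were 24.1% of all genes tested. Named after its values were seen, Myc had 25.6, 31.2, 46.6 and 45.1 CPM in KO-labelled replicates 1 to 4, against 79.7, 49.4, 47.9 and 292 CPM in control replicates 1 to 4. Its groups did not overlap, but controls 2 and 3 were close to KO-labelled replicates 3 and 4 (log2 change -1.24, 95% interval -2.28 to -0.20, limma adjusted p = 0.183). Hif1a, the oxygen-sensing subunit of HIF, had 45.9, 56.7, 63.4 and 43.6 CPM in the KO-labelled libraries, against 64.6, 55.4, 62.3 and 45.2 CPM in the controls. Control replicate 4 also had the lowest sum of T cell markers, 13409 CPM against 15804 CPM or more in the other 7 libraries. Single markers did not all go this way. Control replicate 4 was the lowest library for Cd3e, Cd247, Lck, Cd28, Bcl11b, Tcf7 and Lat, but not for Cd3d, Cd3g, Thy1, Zap70 and Cd2. Cd3d was at 747 CPM in it, against 686, 731 and 707 CPM in control replicates 1 to 3. The part of Myc or of cell makeup in the glycolysis values was not tested.

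**Figure D5:**
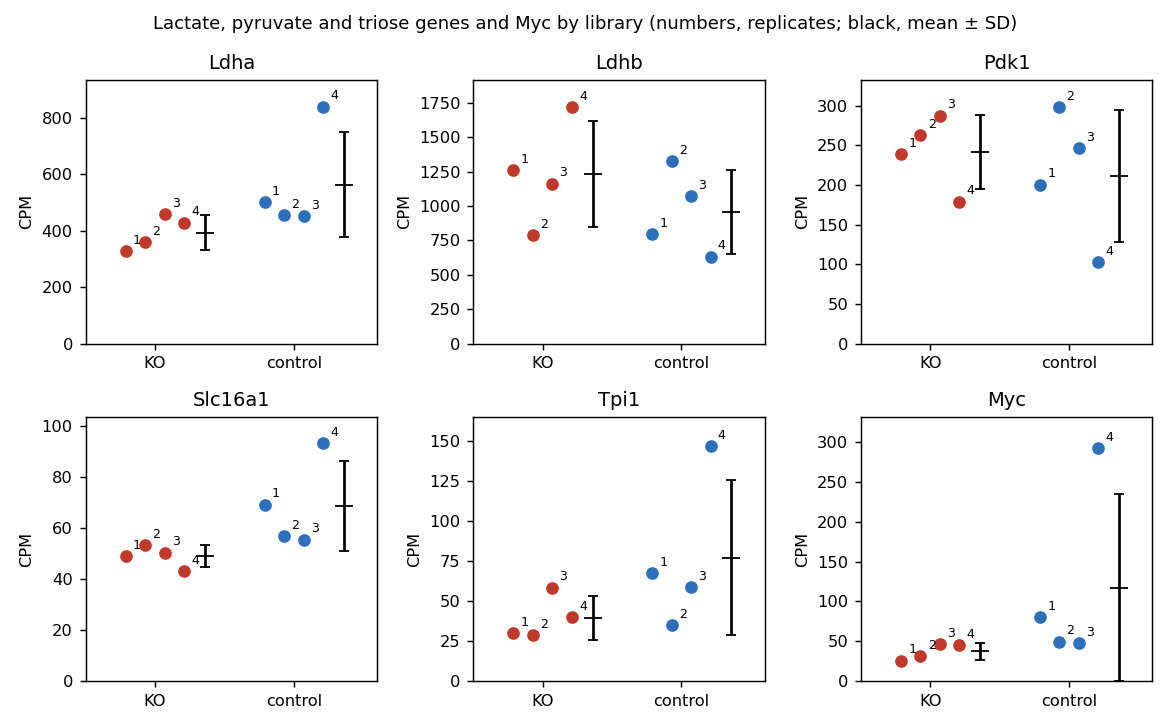
CPM of Ldha, Ldhb, Pdk1, Slc16a1, Tpi1 and Myc in the KO-labelled libraries (red, left) and controls (blue, right), with replicate numbers beside the points and mean ± SD (n = 4) in black. Control replicate 4 is the highest library for Ldha (840.5 CPM), Slc16a1, Tpi1 and Myc (292 CPM) and the lowest for Ldhb (632 CPM) and Pdk1 (102 CPM).

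The promoters of the genes were searched for the letters these factors bind. The core of the hypoxia response element was taken as ACGTG or GCGTG and the E-box bound by MYC as CACGTG, which contains ACGTG, on both strands of the 300 bases around each RefSeq start (GRCm38.p6). Of 31 members matched by symbol, 25 held ACGTG or GCGTG (80.6%), beside 61.7% of promoters of the tested genes and 43.8% of all 32851 promoters. CACGTG was in 5 of 31 (Pfkm, Ldha, Slc16a1, Pdk2 and Bnip3; 16.1%), beside 10.1% of promoters of the tested genes and 7.15% of all promoters. All these motifs hold CG, and promoter GC content was 62.0% (median) in the members, 60.3% in tested genes and 52.7% in all. Among the genes with CACGTG, control replicate 4 was the highest library for Ldha and Slc16a1 and the lowest for Pdk2. It was neither for Pfkm and Bnip3. The 3 promoters below belong to genes for which control replicate 4 was high, shown because they differ in these letters. They were chosen after the values were seen and run 5′ to 3′ on the gene's strand, with the searched letters of either strand in capitals: Ldha at chr7:46845554-46845853 (plus strand), Pgam1 at chr19:41911621-41911920 (plus strand) and Tpi1 at chr6:124814109-124814408 (minus strand).
Ldha: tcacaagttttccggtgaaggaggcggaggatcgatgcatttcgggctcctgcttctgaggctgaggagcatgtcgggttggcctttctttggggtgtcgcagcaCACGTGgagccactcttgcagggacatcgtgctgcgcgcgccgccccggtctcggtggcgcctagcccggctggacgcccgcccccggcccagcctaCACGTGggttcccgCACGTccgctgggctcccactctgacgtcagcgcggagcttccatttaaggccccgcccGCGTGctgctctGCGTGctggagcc
Pgam1: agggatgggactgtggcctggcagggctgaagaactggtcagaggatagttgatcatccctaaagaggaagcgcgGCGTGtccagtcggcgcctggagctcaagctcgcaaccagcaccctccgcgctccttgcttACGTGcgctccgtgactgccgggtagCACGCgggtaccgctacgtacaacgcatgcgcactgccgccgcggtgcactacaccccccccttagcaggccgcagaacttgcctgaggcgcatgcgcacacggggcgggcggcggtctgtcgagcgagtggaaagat
Tpi1: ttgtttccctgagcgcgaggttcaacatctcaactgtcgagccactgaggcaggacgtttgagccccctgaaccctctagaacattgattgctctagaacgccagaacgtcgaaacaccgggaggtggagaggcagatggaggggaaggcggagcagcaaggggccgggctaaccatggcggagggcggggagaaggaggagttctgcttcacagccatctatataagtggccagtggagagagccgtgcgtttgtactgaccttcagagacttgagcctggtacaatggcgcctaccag
Ldha held 5 marked stretches, 2 of them CACGTG, Pgam1 held 3 and Tpi1 held 0. The Ldha start in RefSeq lies 4329 bases from the start of the gene in GENCODE. A match is a run of letters and not a bound site.

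Genes around the pathway were read from lists of its branches. In the pentose phosphate pathway 1 of 10 tested genes fell and 0 rose, beside 2.32% of all genes that fell and 1.21% that rose. Of the 10 estimates 6 were above 0 and 4 below. Pgls, its lactonase, had 49.1, 58.4, 53.1 and 35.5 CPM in KO-labelled replicates 1 to 4, against 97.1, 67.9, 86.8 and 146 CPM in the controls. No value overlapped (log2 change -0.97, 95% interval -1.46 to -0.49, limma adjusted p = 0.0384), and it is 2.03-fold higher in controls in the authors' deposited table. The call was lost under 4 settings that kept all libraries, and when any of 6 libraries was left out (KO-labelled replicates 1 to 4, controls 1 and 3), with adjusted p up to 0.109.

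Among 18 tested isozymes and regulators outside the 32 genes, 1 fell and 0 rose, beside 3.53% of all genes called. Of the 18 estimates 8 were above 0 and 10 below. Galk1, which brings galactose into glycolysis, had 24.7, 23.5, 34.0 and 23.7 CPM in the KO-labelled libraries, against 43.3, 38.2, 41.3 and 62.4 CPM in the controls. Its groups did not overlap (log2 change -0.77, 95% interval -1.17 to -0.38, limma adjusted p = 0.0415). The call was lost under 5 settings that kept all libraries, and without KO-labelled replicate 1, 2 or 4 or control replicate 1 or 3, with adjusted p up to 0.130. Of 10 tested transcriptional regulators 1 fell and 0 rose, again beside 3.53% called over all genes, with 1 estimate above 0 and 9 below. Tfeb, a lysosome and autophagy regulator, had 1.42, 1.14, 1.64 and 1.13 CPM in the KO-labelled libraries, against 4.27, 4.84, 5.76 and 3.90 CPM in the controls. Its values were far apart (log2 change -1.28, 95% interval -1.72 to -0.84, limma adjusted p = 0.0102), and the call held under every setting in which it was tested. The authors' deposited table gives Tfeb as 3.52-fold higher in controls.

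In the serine branch, which draws on a glycolytic intermediate, limma called 0 of 8 tested genes. At an unadjusted p below 0.05 there were 2, both lower, beside 19.3% of all genes (11.7% lower). The 8 estimates were below 0, as were 54.8% of all genes, with a median log2 change of -0.65 beside -0.03 over all genes. Phgdh, the first enzyme of the branch, had 63.2, 87.4, 101 and 94.7 CPM in the KO-labelled libraries, against 125, 94.7, 106 and 296 CPM in the controls. Psat1, the next enzyme, had 19.7, 41.9, 47.2 and 39.6 CPM in the KO-labelled libraries, against 63.8, 41.8, 50.9 and 125 CPM in the controls. Control replicate 4 was again the highest library in both. The HIF pathway outside the 32 genes had 20 tested genes and 0 called by limma. Of these, 3 were lower at an unadjusted p below 0.05, beside 11.7% of all genes. The HIF prolyl hydroxylase gene Egln3 averaged 8.42 ± 2.30 CPM in the KO-labelled libraries and 14.3 ± 2.65 CPM in the controls (SD, n = 4 each, limma adjusted p = 0.0896). Hif1an, an asparagine hydroxylase that restrains HIF, averaged 50.1 ± 3.84 CPM in the KO-labelled libraries and 69.96 ± 11.7 CPM in the controls (SD, n = 4 each, limma adjusted p = 0.0980).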

How the data were processed

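RNA-seq of 8 libraries was measured, 4 KO-labelled and 4 control, grouped by their titles. Per the labels, a SMARTer Ultra Low kit was used for the libraries. STAR (2.7.3a), Partek (10.0.22.0524) and mm10 come from the submitters' processing notes, which name no counter, strand setting or annotation release. The authors deposited CPM values with 0.0001 added to each, which was subtracted here. A second deposited table gives the authors' signed fold of control over KO, with the statistical model not given.

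Depth was worked out from the CPM of 1 read. Between 72.5% and 75.6% of values under 50 reads were whole multiples within 0.02 reads, too few to recover reads, and no count test was run. The floor of 3 reads covers counting error alone.

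The genes tested had 1 CPM or more in 4 or more libraries. They were tested with limma (3.58.1, R 4.3.3) on log2(CPM + 1), with a mean-variance trend, two-sided, as KO-labelled minus control, with Benjamini-Hochberg adjustment over 13840 genes. Fold changes on this scale understate low genes. Members and lists were chosen with earlier results of these data known. The test was checked on simulated data. Library values are given for genes whose groups do not overlap, the most abundant of each step, and Hk1, Hk2, Ldha, Ldhb, Slc2a1, Slc2a3 and the X-linked genes. Each branch list gives its called genes, up to 4, and otherwise the 2 of lowest p. Hk3, Tpi1, Gapdh, Pgam1, Myc and Hif1a were added after their values were seen, and so were the 3 promoters, since the rule was to print promoters of called members and none was called. Exon lengths and positions are from GENCODE vM21. Exons of 12 members overlap a gene on the opposite strand (Hk1, Hk3, Gpi1, Pfkm, Pfkp, Aldoa, Tpi1, Gapdh, Slc2a1, Pfkfb2, Pdha1 and Bnip3), and with strandedness unknown the reads of such a pair may be mixed. Copies were found with BLAST+ (2.17.0), counting genes matched over at least 50% of their longest transcript. Alternatives were other pseudocounts, filters, scalings, weights, a replicate block and each library left out.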

Additional observations from a re-analysis of the deposited data

Results flagged for a closer look

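Within the 60 groups of 4 libraries examined for the 30 tested genes, 4 held a library far from the other 3, and in each it was control replicate 4. Chance alone gives about 1 such flag in 20 groups. Hk2 was at 8.88 CPM in it, against 2.74 to 3.24 CPM in the other controls. Gpi1 was at 309 CPM, against 239 to 249.6 CPM. Aldoa was at 449 CPM, against 363 to 375 CPM. Ldha was at 840.5 CPM, against 452 to 502 CPM.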

How the results depend on the processing

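Under 19 alternatives, 2 of them added after seeing the data, the count of called glycolysis genes stayed at 0 except with array weights. There Hk1 and Bnip3 made 2 of 30, and the calls over all genes rose to 1313 of 13840. Leaving out single libraries put the calls over all genes between 81 and 670, against 488 with all libraries, and called 0 members each time, with the members' median log2 change between -0.15 and -0.05. With libraries left out, the log2 difference of isozyme ratios ran from -0.84 to -0.14 for Hk1/Hk2, -0.05 to 0.51 for Slc2a3/Slc2a1, 0.46 to 1.11 for Ldhb/Ldha and 0.22 to 0.36 for Pfkp/Pfkl. The replicate block called 509 genes and 0 members (lowest limma adjusted p = 0.0652). Deviations of same-numbered libraries from their group means had correlations of 0.149, 0.065, -0.102 and 0.176. For controls 1, 2 and 4 the same-numbered KO-labelled library was the best match. The highest value was 0.355, between KO-labelled replicate 1 and control replicate 3. The titles also letter the libraries, a to d in the controls and b to e in the KO-labelled group, so equal letters pair them otherwise. Correlations for equal letters b, c and d were -0.049, 0.053 and 0.161. Such correlations cannot settle whether equal numbers mark a pair, which the labels do not say. Of 545 single-gene log2 changes 27 turned sign, in 10 genes, and the cause was not tested. Aldoa was at 0.022 with median ratio factors and 0.020 with array weights, and Pdk2 at -0.00014 with array weights. With copies added, Gpi1 was at -0.0083 and Pgk1 at -0.16. With libraries left out, the log2 change ran from -0.16 to 0.35 for Hk2, -0.011 to 0.11 for Gpi1, -0.048 to 0.078 for Pfkp, -0.069 to 0.049 for Aldoa, -0.30 to 0.0065 for Gapdh, -0.10 to 0.22 for Pgk1, -0.12 to 0.37 for Slc2a1, -0.039 to 0.47 for Pdk1 and -0.080 to 0.11 for Pfkfb2. The highest values for Hk2, Gpi1, Aldoa, Gapdh and Pgk1 and the lowest for Pdk1 and Pfkfb2 were without control replicate 4. Depth limits Aldoc, whose lowest control values lay under 3 reads, and copies limit Gapdh, Eno1 and Pgk1.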

Other observations

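The list for the citric acid cycle, which takes up what pyruvate dehydrogenase delivers, held 0 called genes of 19 tested by limma. At an unadjusted p below 0.05 there were 4, all lower, beside 19.3% of all genes (11.7% lower). The list was drawn wider than the cycle itself, with Mdh1 and Idh1, whose enzymes are cytosolic, and Pcx, whose enzyme feeds the cycle. Of the 19 estimates 17 were below 0, beside 54.8% of all genes, with a median log2 change of -0.22 beside -0.03 over all genes. Sdhd, a subunit of succinate dehydrogenase, had 94.4, 96.1, 111 and 116 CPM in KO-labelled replicates 1 to 4, against 131, 128, 127 and 183 CPM in control replicates 1 to 4. Its groups did not overlap (limma adjusted p = 0.124). Idh1, a cytosolic isocitrate dehydrogenase, averaged 18.9 ± 3.66 CPM in the KO-labelled libraries and 25.6 ± 2.64 CPM in the controls (SD, n = 4 each, limma adjusted p = 0.188). In the glycogen and hexosamine branches limma called 0 of 12, with 2 at an unadjusted p below 0.05, beside the same 19.3%. The glycogen synthase gene Gys1 averaged 22.3 ± 5.95 CPM in the KO-labelled libraries and 30.1 ± 3.34 CPM in the controls, and Pgm1, a phosphoglucomutase gene, averaged 13.8 ± 1.75 CPM in the KO-labelled libraries and 20.4 ± 6.52 CPM in the controls (SD, n = 4 each).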
